A study of Mus musculus with 6 samples.

Results

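The genes described here carry the names of the translation initiation factors and the proteins that bind them, in C2C12 myotubes kept in insulin. They were taken by symbol: every gene whose symbol in the array's annotation starts with Eif1, Eif2, Eif3, Eif4, Eif5 or Eif6, without the eIF2 kinases (Eif2ak), and only through probe sets that carry exactly 1 symbol. This gave 52 of the 20416 genes measured. A filter on dim genes kept 51 of them, among 14291 genes tested in all.

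C2C12 is a mouse myoblast line whose cells fuse into myotubes when serum is lowered. All cultures grew in 10% fetal bovine serum and differentiated in 2% horse serum, and myotubes of day 4 to day 7 were used. The 3 insulin cultures received 100 nM insulin for 48 h, a treatment that the labels describe as a way to make the cells insulin-resistant. The 3 control cultures received none, and the medium of both groups was changed every 24 h. The labels call the 3 arrays of a group biological replicates without naming separate cultures, so that p-values measure the spread between these samples. Because 1 cell line was used and 25 ng of RNA was amplified for each array, all levels are those of amplified RNA from that line.

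Translation of most mRNAs begins when the small ribosomal subunit, loaded with eIF1, eIF1A, eIF3, eIF5 and the initiator tRNA carried by eIF2, is brought to the mRNA cap by eIF4F. In eIF4F, eIF4E binds the cap, eIF4G is the scaffold and eIF4A the RNA helicase. After the start codon is found, eIF2 leaves with GDP and is reloaded with GTP by eIF2B, and eIF5B helps the large subunit to join. Insulin is known to act on this machinery mainly through the proteins: through mTORC1 it leads to phosphorylation of the 4E-binding proteins, which then release eIF4E, and it relieves the inhibition of eIF2B by GSK3. The arrays measure transcripts and carry no information on phosphorylation or on protein levels.

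The deposited values were on a log2 scale, with medians of 8.79 to 8.82 on the 6 arrays and correlations between arrays of 0.980 to 0.996. A gene's level was the median of its probe sets, and the initiation factor genes had 3 to 36 probe sets each (median 10.5). A change is insulin minus control on the log2 scale, with the standard error (SE) and the adjusted p of limma over all tested genes, and "called" means an adjusted p under 0.05. The values were equalized between arrays, so a change is relative to the other transcripts, and fewer cells of a type cannot be told apart from less RNA per cell. Markers of cell state moved between the same groups. Of 12 markers of differentiated myotubes, 2 were called lower (Myog and Ckm) and none higher, and the log2 of their summed level was 16.62 to 16.65 on insulin arrays against 16.79 to 16.89 on control arrays. Of 7 markers of dividing or undifferentiated myoblasts, 6 were called higher, with a summed level of 14.11 to 14.18 on insulin arrays against 13.64 to 13.71 on control arrays. The 6 were Myf5, Mki67, Top2a, Cdk1, Mcm3 and Ccna2, while Pax7 was not called (-0.032, adjusted p = 0.915). Of 4 adipocyte markers, Adipoq and Fabp4 were dim in both groups, at means of 5.28 and 5.35 on insulin arrays and 5.43 and 5.54 on control arrays. The adipocyte markers Plin1 and Cfd passed the filter and were not called, at 7.85 and 7.95 on insulin arrays and 7.88 and 8.06 on control arrays. Of 3 fibroblast markers, Dcn was called lower, Pdgfra was not called (-0.25, adjusted p = 0.116) and Lum was dim. The part of these markers in the results below was not tested.

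As a group, the initiation factor transcripts differed little between insulin and control. Eif1ad alone was called higher, which is 1 of 51 or 1.96%, against 9.56% of all tested genes. No member was called lower, against 6.35% of all tested genes. Over 17 other settings of the analysis, 1 to 8 members were called higher and 0 to 1 lower, and Eif1ad was called in every one. The number of all genes called moved as well, between 663 and 2608 higher and between 382 and 2399 lower. With array weights, the setting that gave 8 members higher and 1 lower, 2608 of 14291 genes were higher and 2399 lower. At an unadjusted limma p under 0.05, 8 members were higher (15.7%, against 16.7% of all genes) and 0 were lower (against 13.2%). For 47 of the 51 members (92.2%, against 87.9% of all genes) the 95% interval of the change lay inside 1.5-fold either way, and for 37 (72.5%, against 46.8%) it lay inside 1.25-fold. The 4 members whose interval reached past 1.5-fold were Eif2s1, Eif2s2, Eif4e and Eif4e3. The median SE was 0.074 for members and 0.083 for all genes.

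The changes leaned to one side while staying small. The change was positive for 37 members and negative for 14, so that 72.5% were positive, against 49.4% of all genes. The median change was 0.058 for members and -0.0028 for all genes, and the median size regardless of sign was 0.081 for members and 0.12 for all genes. The insulin arrays lay all above the control arrays for 13 members (25.5%, against 20.0% of all genes) and all below them for 0 members (against 15.7%). Taken by probe set, 428 of the 598 member probe sets that passed the filter were higher with insulin (71.6%, against 49.1% of all probe sets). Of these probe sets, 11 were called higher (1.84%, against 3.95%) and 2 lower (0.334%, against 1.71%). For 9 members every probe set was higher, and for 2, Eif4a2 and Eif2c2, every probe set was lower. Probe sets under the filter are included in these 2 counts, and the share of all genes with such agreement was not computed. Member genes share arrays and many are expressed together, so these counts describe the group and are not independent observations.

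**Figure D1:**
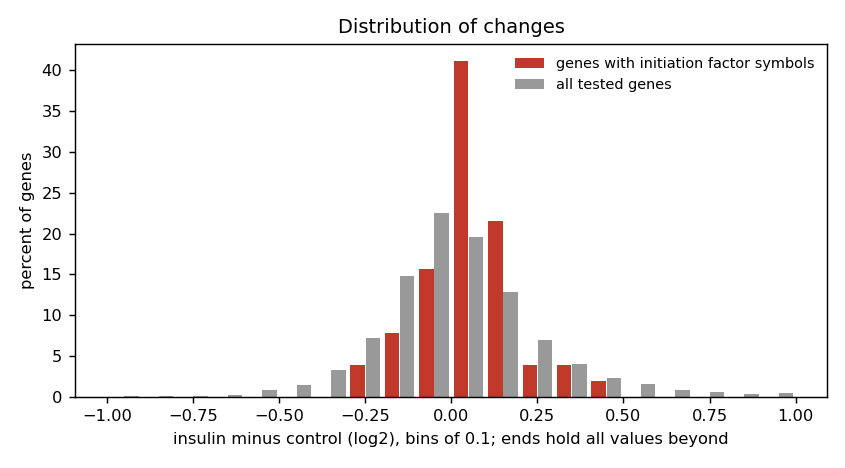
Distribution of the change, insulin minus control on the log2 scale (x axis), as a percentage of genes (y axis), for the 51 initiation factor genes and for all 14291 tested genes. The member genes lie between -0.25 and 0.40, with their median at 0.058 and that of all genes at -0.0028.

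**Figure D2:**
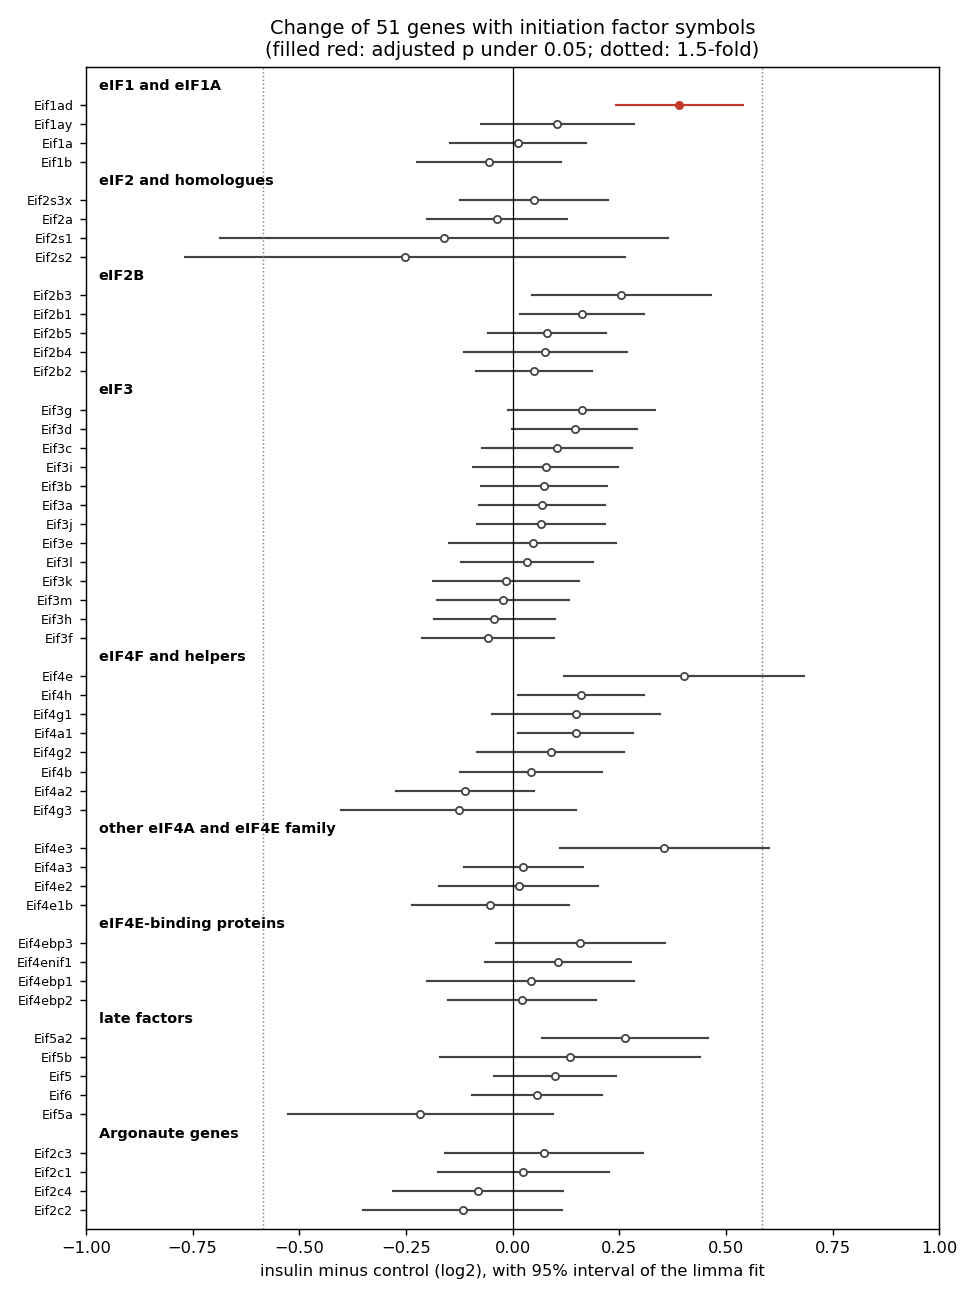
Change of each of the 51 tested genes, insulin minus control on the log2 scale (x axis), grouped by complex (y axis), with bars for the 95% interval of limma and dotted lines at 1.5-fold. Eif1ad, in red, is the member that was called, and the widest intervals belong to Eif2s1, Eif2s2, Eif5b and Eif5a.

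Eif1ad, on chromosome 19, encodes a small protein named for its eIF1A-like domain and is not itself an initiation factor. Its level was 11.79, 11.92 and 11.83 on insulin arrays, against 11.44, 11.45 and 11.47 on control arrays. The groups did not overlap, and each group was tight. The change was 0.39 ± 0.065 (SE; 1.31-fold), with a 95% interval of 0.24 to 0.54 and an adjusted p of 0.00686. All 6 probe sets were higher, and 5 of them were called, with changes of 0.38 to 0.62 over the 6. These calls of single probe sets were fragile: no member probe set was called higher with the replicate number as a block, nor without insulin replicate 1, 2 or 3 or control replicate 2, whereas the gene stayed called in each of these settings. Larger changes were common in these data, and 818 called genes rose at least as much.

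The promoter of Eif1ad is shown because it belongs to the member that was called, and those of Eif4a1 and Eif4a2 because these near relatives had changes of opposite sign. The windows are the 250 bases upstream of the annotated start, 5′ to 3′ on the gene's strand, from RefSeq on GRCm38.p6. Capitals mark letters of an E-box (CACGTG) or a GC box (GGGCGG, printed as CCGCCC where it lies on the opposite strand). They lie at chr19:5366563-5366812 on the plus strand (Eif1ad), chr11:69672424-69672673 on the minus strand (Eif4a1) and chr16:23107218-23107467 on the plus strand (Eif4a2).
Eif1ad: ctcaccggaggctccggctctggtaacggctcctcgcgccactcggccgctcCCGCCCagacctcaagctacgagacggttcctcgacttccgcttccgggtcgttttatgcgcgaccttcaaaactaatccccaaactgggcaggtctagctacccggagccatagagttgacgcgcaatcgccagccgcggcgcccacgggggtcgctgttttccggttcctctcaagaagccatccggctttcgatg
Eif4a1: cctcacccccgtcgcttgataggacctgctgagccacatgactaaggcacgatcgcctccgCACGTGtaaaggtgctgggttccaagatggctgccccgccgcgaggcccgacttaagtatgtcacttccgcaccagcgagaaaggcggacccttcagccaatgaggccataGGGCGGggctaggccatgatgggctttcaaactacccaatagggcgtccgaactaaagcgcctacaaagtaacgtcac
Eif4a2: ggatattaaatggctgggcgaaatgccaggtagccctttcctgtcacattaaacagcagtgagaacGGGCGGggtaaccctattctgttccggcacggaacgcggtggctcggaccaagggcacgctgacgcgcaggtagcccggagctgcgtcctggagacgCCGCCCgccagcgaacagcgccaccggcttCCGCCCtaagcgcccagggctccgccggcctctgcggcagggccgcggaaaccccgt

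The Eif1ad window held 1 GC box and no E-box, that of Eif4a1 held 1 of each, and that of Eif4a2 held 3 GC boxes and no E-box. Neither motif overlapped the other, and the core of the ATF4 and C/EBP composite site (TGATGNAA) was in none of these 3 windows. Both strands were searched in every promoter window, in the 250 bases upstream of the annotated start. The 50 bases after the start were not searched. An E-box was in 6.02% of 32851 windows and in 11 of the 53 windows (20.8%) that matched 40 member genes. GC boxes were in 32.7% of all windows and in 71.7% of the member windows, and the composite core in 3.45% of all and 1.89% of the member windows. The E-box windows belonged to 9 genes: Eif1b, Eif3f, Eif3k, Eif4a1, Eif4e, Eif4g1, Eif4h, Eif5a and Eif5a2. Their changes ran from -0.22 (Eif5a) to 0.40 (Eif4e), and none was called. A match of letters is a description and shows no binding.

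The other genes of the eIF1 and eIF1A group, which scan for the start codon with the small subunit, had changes of -0.056 to 0.10, none of them called. Eif1b, a close relative of eIF1, was at 10.94, 11.08 and 11.02 on insulin arrays and at 10.98, 11.08 and 11.15 on control arrays. The groups overlapped, and the change was -0.056 ± 0.073 (adjusted p = 0.665). Of its 5 probe sets 4 were higher, and the gene level on every array was that of the 1 lower probe set. Eif1a had a change of 0.013 and the gene annotated as Eif1ay, now Eif1ax on the X chromosome, one of 0.10.

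For eIF2, which carries the initiator tRNA, the gene levels of the alpha and beta subunits followed largely 1 probe set each. Eif2s1, the alpha subunit whose phosphorylation slows initiation under stress, was at 12.14, 11.47 and 12.11 on insulin arrays and at 12.20, 11.63 and 12.37 on control arrays. Eif2s2, the beta subunit, was at 11.14, 10.71 and 11.53 on insulin arrays and at 11.50, 10.99 and 11.64 on control arrays. In both genes and both groups, replicate 2 was the lowest array. The changes were -0.16 ± 0.23 (adjusted p = 0.689) for Eif2s1 and -0.25 ± 0.22 (adjusted p = 0.504) for Eif2s2, which was the lowest change of all members.

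Below the gene level the picture was different. In Eif2s1, 1 of 4 probe sets read 11.59, 10.12 and 11.44 on insulin arrays and 11.93, 10.57 and 12.04 on control arrays, a change of -0.46. The other 3 were higher with insulin, by 0.013 to 0.14. One probe set of Eif2s2 read 11.14, 10.56 and 11.53 on insulin arrays and 11.50, 10.99 and 11.64 on control arrays, a change of -0.30, and the other 8 were higher, by 0.046 to 0.52. When each probe set was centred on its own mean before the median was taken, Eif2s1 had a change of 0.12 and Eif2s2 one of 0.23, which was called for Eif2s2 (adjusted p = 0.0173). The direction of both genes therefore depends on the summary of probe sets, and why these probe sets were low on both replicate 2 arrays was not tested.

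**Figure D3:**
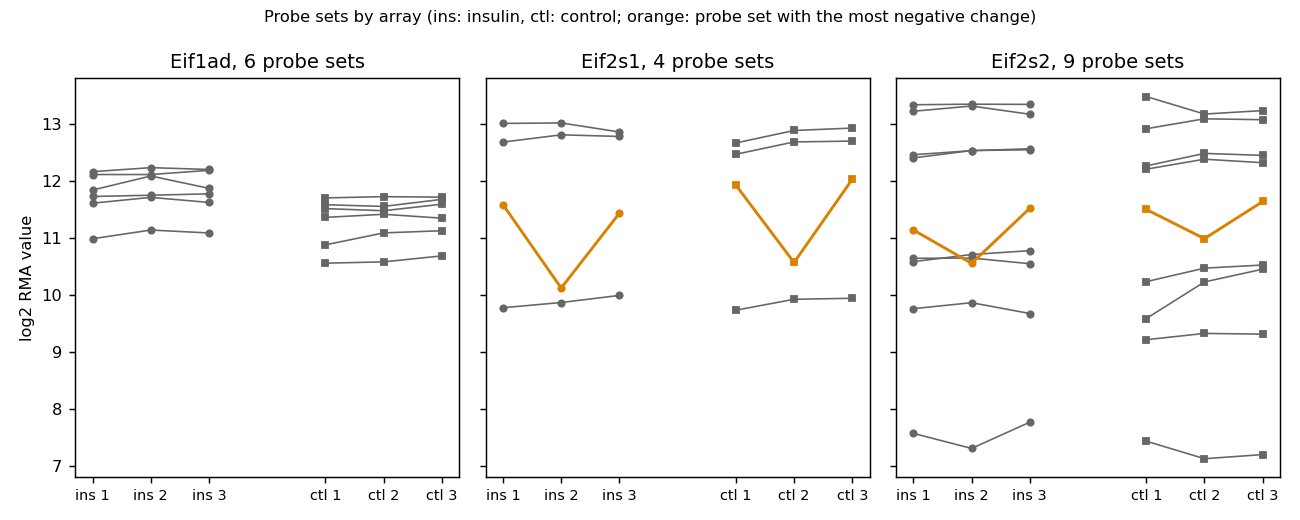
Log2 level of single probe sets (y axis) on the 3 insulin and 3 control arrays (x axis) for Eif1ad, Eif2s1 and Eif2s2, each line a probe set and the orange line the one with the most negative change. The 6 lines of Eif1ad lie higher on insulin arrays, while in Eif2s1 and Eif2s2 the orange line dips on the replicate 2 array of both groups.

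Eif2s3x, the gamma subunit, was at 12.99, 12.76 and 12.89 on insulin arrays and at 12.80, 12.84 and 12.85 on control arrays. The groups overlapped (change 0.050 ± 0.075, adjusted p = 0.708). Its Y-linked relative Eif2s3y was the member that the filter left out, with 4.53, 4.36 and 4.27 on insulin arrays and 4.14, 4.33 and 4.43 on control arrays. Eif2a, an initiator tRNA-binding protein that is not a subunit of eIF2, had a change of -0.037 (adjusted p = 0.780).

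All 5 subunits of eIF2B, the exchange factor that reloads eIF2, had a positive change (49.4% of all tested genes had one), and in 4 of them the insulin arrays lay all above the control arrays (20.0% of all tested genes), though none was called. Eif2b3, the gamma subunit, was at 11.58, 11.58 and 11.71 on insulin arrays, against 11.19, 11.48 and 11.44 on control arrays. Its change was 0.25 ± 0.091 (adjusted p = 0.10), and 12 of its 12 probe sets were higher. In 3 of the 17 alternatives Eif2b3 was called: with the mean, the brighter and centred probe sets (lowest adjusted p = 0.00785). The brightest probe set gave 0.0098 (adjusted p = 0.942). Eif2b5, the catalytic epsilon subunit, was at 11.63, 11.62 and 11.63 on insulin arrays, against 11.53, 11.52 and 11.58 on control arrays. These groups did not overlap either, at a change of 0.081 ± 0.060 (adjusted p = 0.416). The change was 0.16 for Eif2b1 (adjusted p = 0.125), 0.077 for Eif2b4 and 0.049 for Eif2b2, the lowest of the complex, with 9 of 9 probe sets higher. The Eif2b2 arrays read 12.67, 12.64 and 12.69 with insulin and 12.63, 12.63 and 12.60 in controls. The median change of the complex was 0.081.

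The 13 genes of eIF3, the large scaffold on the small subunit, had a median change of 0.066. The change was positive for 9 and negative for 4, against 72.5% positive among all members and 49.4% among all tested genes. None of the 13 was called. Eif3a, the largest core subunit, was at 12.48, 12.49 and 12.42 on insulin arrays and at 12.40, 12.45 and 12.33 on control arrays. The groups overlapped (change 0.069 ± 0.064, adjusted p = 0.526), while 20 of 22 probe sets were higher. Eif3g, a subunit with an RNA-recognition motif, had the highest change of the complex and was at 12.31, 12.45 and 12.24 on insulin arrays, against 12.15, 12.16 and 12.22 on control arrays. Its groups did not overlap, with a change of 0.16 ± 0.075 (adjusted p = 0.192) and 11 of 11 probe sets higher. Eif3d, a subunit that can itself bind the cap of some human mRNAs, was the other gene whose insulin arrays lay all above the controls (0.15, adjusted p = 0.169).

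At the lower end stood Eif3f, which belongs to the MPN-domain subunits together with Eif3h. Its level was 12.65, 12.80 and 12.70 on insulin arrays and 12.75, 12.77 and 12.81 on control arrays. The groups overlapped, at a change of -0.057 ± 0.067 (adjusted p = 0.626), and 7 of 8 probe sets were lower. Eif3h had a change of -0.043 with 6 of 7 probe sets lower. Eif3j, now Eif3j1, has a near copy in the mouse genome, Eif3j2, and its value (0.066) may hold signal of both.

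In eIF4F and its helpers, which bind the cap and unwind the leader, the median change was 0.12. The change was positive for 6 of 8 genes, against 72.5% of all members and 49.4% of all tested genes. Eif4e, the cap-binding subunit, had the largest change of all members at the level of probe set medians, though not with centred probe sets, where it was 0.20, against 0.48 for Eif1ad. It read 10.90, 10.85 and 10.80 on insulin arrays, against 10.18, 10.48 and 10.69 on control arrays. The insulin arrays were close together and above all controls, which spread widely. The change was 0.40 ± 0.12 (1.32-fold, 95% interval 0.12 to 0.68), and the adjusted p of 0.0620 missed the threshold. Of the 17 alternatives, 6 brought Eif4e past the threshold and 11 did not. Leaving out control replicate 3, the highest control, gave a change of 0.52 (adjusted p = 0.0155), and leaving out control replicate 1, the lowest, gave 0.26 (adjusted p = 0.0807). With insulin arrays or control replicate 2 left out, the adjusted p was 0.129 to 0.168, and the brightest probe set gave 0.15 (adjusted p = 0.226). Of its 6 probe sets, 5 were higher.

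The helicase subunits of eIF4F had changes of opposite sign. Eif4a1, the main eIF4A, was at 13.04, 13.02 and 13.05 on insulin arrays, against 12.88, 12.90 and 12.90 on control arrays. Its groups did not overlap and 12 of 12 probe sets were higher, at a change of 0.15 ± 0.059 (adjusted p = 0.134). Of the 17 alternatives, 2 brought Eif4a1 past the threshold, the intensity trend and array quality weights (lowest adjusted p = 0.0173). Eif4a2, the close relative that is prominent in some tissues, was at 12.96, 12.90 and 12.88 on insulin arrays and at 12.92, 13.08 and 13.07 on control arrays. These groups overlapped and the change was -0.11 ± 0.071 (adjusted p = 0.342), yet 7 of 7 probe sets were lower, with changes of -0.30 to -0.11. The gene level of Eif4a2 on every array was that of 1 probe set, the one with the smallest change. The median change of the 7 probe sets was -0.22.

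Within each array, Eif4a1 minus Eif4a2 was 0.082, 0.12 and 0.17 with insulin, against -0.048, -0.19 and -0.17 in controls. The 2 groups of differences did not overlap, and their means differed by 0.26. The exact permutation test gave p = 0.1, the smallest that 3 against 3 allows (0.167 adjusted over 5 pairs), so this test cannot reach 0.05 with 3 arrays a group. In 4 of the 17 alternatives Eif4a2 was called lower: with array quality weights (-0.16, adjusted p = 0.0365), the mean of probe sets (-0.22, 0.0119), the brightest probe set (-0.24, 0.0472) and centred probe sets (-0.19, 0.0225). A within-array difference shows unequal change and not which gene is more abundant.

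Of the scaffolds, Eif4g1 was at 12.13, 12.13 and 12.01 on insulin arrays and at 12.09, 11.93 and 11.81 on control arrays. The groups overlapped (change 0.15 ± 0.086, adjusted p = 0.298), with 30 of 34 probe sets higher. Eif4g3, its relative, was at 10.65, 10.45 and 10.53 on insulin arrays and at 10.89, 10.70 and 10.42 on control arrays. It had the lowest change of the complex, -0.13 ± 0.12 (adjusted p = 0.533), and its probe sets were split, with 15 higher and 21 lower. The within-array difference of Eif4g1 minus Eif4g3 was 1.48, 1.69 and 1.48 with insulin, against 1.19, 1.23 and 1.39 in controls. It did not overlap between groups, and the group means differed by 0.28 (exact permutation p = 0.1, adjusted 0.167).

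Eif4h, which stimulates the helicase, was higher on every insulin array than on any control array, the lowest insulin array standing at 12.13 and the highest control array at 12.04. It was higher in 7 of 7 probe sets (change 0.16, adjusted p = 0.139). Of the 17 alternatives, 2 brought Eif4h past the threshold, the mean of probe sets and centred probe sets (lowest adjusted p = 0.0282). The change was 0.043 for Eif4b, the other stimulator, and 0.089 for Eif4g2, a relative of eIF4G that lacks the eIF4E site, neither called.

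Among the other members of the eIF4A and eIF4E families, Eif4e3 had the highest change. It encodes a cap-binding relative of eIF4E, and its level was 9.75, 9.94 and 9.62 on insulin arrays, against 9.24, 9.47 and 9.53 on control arrays. The groups did not overlap and 9 of 9 probe sets were higher, of which 6 passed the filter and 0 were called. The gene level on every array was that of 1 probe set, and the median change of the 9 was 0.22. At the gene level the change was 0.36 ± 0.11 (1.28-fold), and the adjusted p of 0.0588 missed the threshold. In 4 of the 17 alternatives Eif4e3 was called: with the 50th percentile filter, the intensity trend, array quality weights and without control replicate 3. Leaving out control replicate 3 gave an adjusted p of 0.0482, and leaving out any other array gave 0.0672 to 0.181. The change was 0.21 with centred probe sets (adjusted p = 0.0586) and 0.031 with the brightest probe set (adjusted p = 0.939). The difference between Eif4e and Eif4e3 within arrays did not separate the groups (0.045, exact permutation p = 0.8).

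Eif4e1b, a relative known from oocytes, was near the dim end at 7.56, 7.54 and 7.56 on insulin arrays and 7.58, 7.75 and 7.49 on control arrays. Its change was -0.052 ± 0.080 (adjusted p = 0.717). Eif4a3, the helicase of the exon junction complex, and Eif4e2, the cap-binding repressor 4EHP, had changes of 0.025 and 0.014.

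The 4E-binding proteins, which keep eIF4E from eIF4G until they are phosphorylated, had positive changes in 4 of 4 genes, and the groups overlapped in each. Among all members 72.5% had a positive change, and among all tested genes 49.4%. The sign turned for Eif4ebp1 without insulin replicate 1 (-0.029) or insulin replicate 2 (-0.0067), and for Eif4ebp2 without control replicate 3 (-0.033). Eif4ebp1 was at 12.26, 12.21 and 11.87 on insulin arrays and at 12.12, 12.05 and 12.05 on control arrays. Insulin replicate 3 was the lowest array of all, and the change was 0.043 ± 0.11 (adjusted p = 0.827). Eif4ebp2 was at 10.89, 10.92 and 10.83 on insulin arrays and at 10.97, 10.86 and 10.75 on control arrays, a change of 0.022 ± 0.076 (adjusted p = 0.877). The 95% intervals ran from -0.20 to 0.28 for Eif4ebp1 and from -0.15 to 0.20 for Eif4ebp2. The difference between them within arrays moved by 0.021 (exact permutation p = 1).

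Eif4ebp3, the dimmest of the 3, was at 8.19, 8.17 and 8.32 on insulin arrays and at 8.21, 7.95 and 8.05 on control arrays. Its change was 0.16 ± 0.086 (adjusted p = 0.267). Eif4enif1, which carries eIF4E into the nucleus, had a change of 0.11 (adjusted p = 0.391).

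The late factors act at and after start codon recognition. Eif5, which triggers GTP hydrolysis by eIF2, was at 12.17, 12.21 and 12.13 on insulin arrays, against 12.03, 12.10 and 12.09 on control arrays. The groups did not overlap, at a change of 0.099 ± 0.062 (adjusted p = 0.340), and 13 of 15 probe sets were higher. Of the 17 alternatives, 2 brought Eif5 past the threshold, the mean of probe sets and centred probe sets (lowest adjusted p = 0.00923). Eif6, which keeps the subunits apart, was at 13.06, 13.09 and 13.18 on insulin arrays and at 13.10, 13.04 and 13.01 on control arrays. It overlapped (0.058 ± 0.066, adjusted p = 0.614), although 7 of 7 probe sets were higher at the group means. Eif5b, the subunit-joining GTPase, had a change of 0.13 (adjusted p = 0.555) with 24 of 29 probe sets higher.

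Eif5a, the hypusine-bearing factor now known mainly for elongation, was at 8.95, 9.14 and 8.83 on insulin arrays and at 9.47, 9.13 and 8.97 on control arrays. The groups overlapped (-0.22 ± 0.13, adjusted p = 0.334). Its 9 probe sets spanned a wide range of brightness, and the 3 brightest had changes of 0.095, -2.6e-04 and 0.11. Of the 9, 4 were higher and 5 lower, and 1 was called higher and 0 lower. The gene's change was 0.094 both with the brighter and with centred probe sets. Eif5a2, its relative, was at 8.84, 8.91 and 8.97 on insulin arrays, against 8.50, 8.76 and 8.66 on control arrays, a change of 0.26 ± 0.084 (adjusted p = 0.0723) without overlap. Of the 8 Eif5a2 probe sets, 4 were higher.

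Within arrays, Eif5a minus Eif5a2 was 0.12, 0.23 and -0.14 with insulin, against 0.97, 0.37 and 0.30 in controls. The groups did not overlap, and their means differed by -0.48 (exact permutation p = 0.1, adjusted 0.167). The difference was 0.095 with the brightest probe set and 0.034 with centred probe sets, so its direction depends on the summary.

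The symbols Eif2c1 to Eif2c4 are old names of Ago1 to Ago4, the Argonaute proteins of microRNA silencing, which are not initiation factors. None was called, and their median change of -0.028 has no settled sign, with -0.11 to 0.026 over the alternatives and 0.018 without insulin replicate 1. Eif2c2 (Ago2) had the lowest change and was at 11.37, 11.32 and 11.39 on insulin arrays and at 11.68, 11.47 and 11.28 on control arrays. Its groups overlapped (-0.12 ± 0.10, adjusted p = 0.491), while 10 of 10 probe sets were lower. Eif2c3 (Ago3) had the highest and was at 8.88, 8.97 and 9.22 on insulin arrays and at 8.85, 8.95 and 9.05 on control arrays, a change of 0.074 ± 0.10 (adjusted p = 0.676). The 2 member probe sets called lower both belonged to Eif2c4 (Ago4). Without the Argonaute genes, 35 of 47 members had a positive change and the median was 0.066.

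Set side by side, the complexes differed by little. Their median changes, in the order of the pathway, were 0.059 for eIF1 and eIF1A, -0.099 for eIF2, 0.081 for eIF2B, 0.066 for eIF3, 0.12 for eIF4F, 0.020 for its other relatives, 0.075 for the 4E-binding proteins and 0.099 for the late factors. The value for eIF2 rests on Eif2s1 and Eif2s2, and its sign is not settled: it was 0.027 without insulin replicate 2 and 0.098 with centred probe sets, and ran from -0.20 to 0.098 over the alternatives. The median of the other eIF4A and eIF4E relatives also turned, ranging between -0.022 and 0.061 over the alternatives, with -0.0089 without control replicate 1. That of eIF3 turned with the brightest probe set (-0.0072). Without control replicate 3, the median was 0.038 for the late factors and 0.039 for the 4E-binding proteins. That of eIF4F ran from 0.016, with the brightest probe set, to 0.13 over the alternatives. Averaged over its members and centred on 0, eIF2B was at 0.070, 0.062 and 0.056 on insulin arrays, against -0.13, -0.041 and -0.015 on control arrays. In eIF4F the means were 0.083, 0.045 and 0.012 on insulin arrays, against -0.071, -0.015 and -0.056 on control arrays. Neither complex overlapped between groups, and the same held for eIF3 and for eIF1 and eIF1A, the group that includes Eif1ad. For eIF3 the lowest insulin array was at -0.0027 and the highest control array at -0.014. How often averages of other gene sets separate the groups was not tested. In contrast, eIF2 ran from -0.31 to 0.13 on insulin arrays and from -0.14 to 0.19 on control arrays. No difference between complexes was tested.

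**Figure D4:**
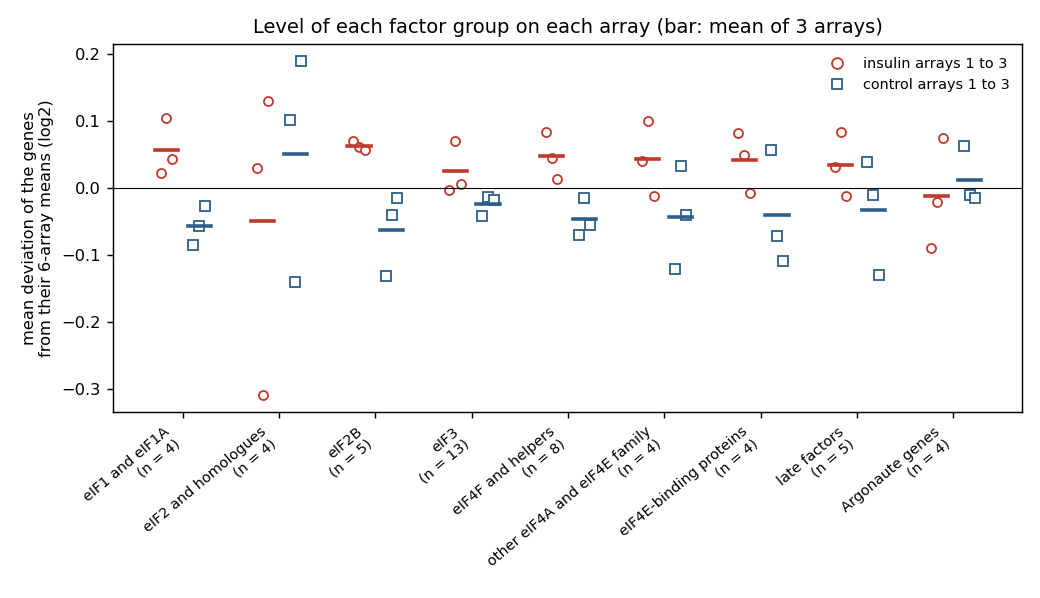
Mean log2 level of each complex's tested genes, each gene centred on its mean over the 6 arrays (y axis), on the 3 insulin and 3 control arrays of each complex (x axis), with a bar at the mean of 3 arrays. Insulin arrays of eIF2B lie at 0.056 to 0.070, above its control arrays, and both groups of eIF2 are spread widely by their replicate 2 arrays.

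Other genes of translation were read from a list of 35 kinases, phosphatases, inhibitors, recycling factors and elongation factors. All 35 were tested, 5 were called higher and 2 lower, and their median change was 0.12. Among all tested genes 9.56% were called higher and 6.35% lower, 15.9% together.

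Among genes acting on eIF2, Ppp1r15a (annotated as Myd116), the GADD34 subunit that brings a phosphatase to eIF2 alpha, was at 9.90, 10.12 and 10.17 on insulin arrays, against 9.36, 9.28 and 9.05 on control arrays. The groups lay well apart, at a change of 0.83 ± 0.11 (adjusted p = 0.00248) with 5 of 5 probe sets higher. Its constitutive counterpart Ppp1r15b had a change of 0.21 (adjusted p = 0.0511). The eIF2 kinases Eif2ak1 to Eif2ak4 had changes of 0.062, 0.33, 0.16 and 0.31, and none was called (lowest adjusted p = 0.0747, for Eif2ak4, known as GCN2).

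Among genes of recycling and re-initiation, Bzw2, whose human protein mimics eIF5 and binds eIF2, was at 11.42, 11.46 and 11.38 on insulin arrays, against 10.74, 10.71 and 10.71 on control arrays. Its groups were far apart compared with their spread, at a change of 0.70 ± 0.061 (adjusted p = 6.19e-04), and 14 of 14 probe sets were higher. Its relative Bzw1 had a change of 0.15 (adjusted p = 0.153). Mcts2 was called at 0.31 (adjusted p = 0.0187) on 1 probe set, while its relative Mcts1 had a change of 0.14 (adjusted p = 0.282), and signal of these 2 may not be separable.

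The genes acting on eIF4F split. Pdcd4, an inhibitor that holds eIF4A, was at 11.12, 11.03 and 10.92 on insulin arrays, against 11.38, 11.49 and 11.36 on control arrays. It fell by 0.39 ± 0.077 (adjusted p = 0.0140), with 15 of 15 probe sets lower. The eIF4E kinases went opposite ways: Mknk1 was called higher (0.28 ± 0.069, adjusted p = 0.0292, 12 of 12 probe sets higher) and Mknk2 lower (-0.28 ± 0.075, adjusted p = 0.0390, 14 of 14 probe sets lower). Ddx3x, an RNA helicase, was called higher (0.22 ± 0.062, adjusted p = 0.0451). No gene of the elongation and termination list was called, with Eef2 at -0.046 and Eef1a1 at -0.065.

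Ppp1r15a and Bzw2 were called in all 17 alternatives, and the other called partners were not. Pdcd4 missed the threshold without insulin replicate 2 (adjusted p = 0.0552), without insulin replicate 3 (0.0573), without control replicate 2 (0.0574) and with the brightest probe set (0.111). Mcts2 missed it without insulin replicates 1, 2 or 3 or control replicate 2 (0.0532 to 0.0802). Mknk1 missed it in 8 alternatives, Mknk2 in 9 and Ddx3x in 12, each time also when insulin replicate 1, 2 or 3 or control replicate 1 or 2 was left out. With these arrays left out the adjusted p was 0.0570 to 0.103 for Mknk1 and 0.0762 to 0.139 for Mknk2, and for Ddx3x, which missed it without control replicate 3 too, it was 0.0774 to 0.140.

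**Figure D5:**
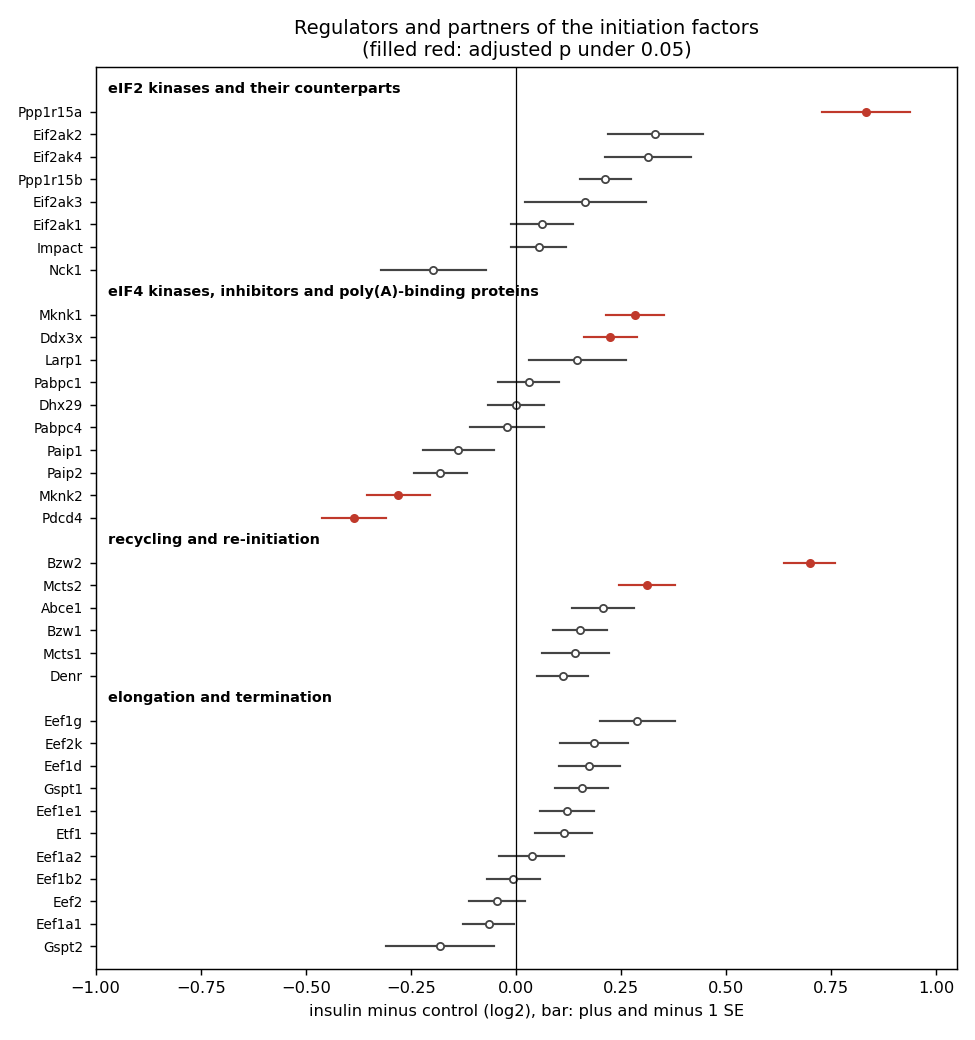
Change of the 35 other pathway genes, insulin minus control on the log2 scale (x axis), by list (y axis), with bars of 1 SE to either side and called genes in red. Ppp1r15a (0.83) and Bzw2 (0.70) lie farthest to the right and Pdcd4 (-0.39) farthest to the left.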

How the data were processed

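Per the submitters' processing notes the values came from RMA, with no version given, and the authors deposited 1 log2 value for each of 241576 probe sets and 6 arrays. The base of the log is not stated and was taken as 2, since values lay between 3.15 and 14.6. Whether a probe set exceeded background was not assessed, and precision is limited by the 6 arrays.

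Symbols came from the platform annotation and present names from RefSeq (GRCm38.p6), which differed for 6 members. A gene's value was the median of its probe sets with exactly 1 symbol. The members had 651 of these, and 50 probe sets that pair a member with other symbols were left out. Genes with a mean under the 30th percentile (7.05) were dropped. The groups were compared with limma 3.58.1 in R 4.3.3 (lmFit, eBayes, two-sided, no covariates), with Benjamini-Hochberg adjustment over 14291 genes, and separately over 148468 probe sets. The fit was tested on simulated data.

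The members, complexes, lists and tests were chosen with earlier results of these data known. Values are given in full for members that were called, for the highest and lowest change of each complex, and for Eif2s1, Eif2b5, Eif3a, Eif4a1, Eif4e, Eif4g1, Eif4ebp1, Eif4ebp2, Eif5 and Eif6. Further members, Eif4a2, Eif4h, Eif2b1 and Eif3d among them, were named after their values were seen.

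The 17 alternatives were the replicate block, quantile normalization, median centring, no filter or a 50th percentile filter, an intensity trend in a robust eBayes, weights for arrays, the mean, the brightest or the brighter probe sets, and each array left out. Centring each probe set before the median was added after seeing the data.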

Additional observations from a re-analysis of the deposited data

How the results depend on the processing

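Over 17 alternatives (13 for probe sets), Eif1ad kept its call, with changes of 0.35 to 0.53. The number of members called was 1 higher and 0 lower in the main setting and under quantile normalization, median centring, no filter and the replicate block. It was 4 higher under the 50th percentile filter, 5 under the intensity trend, 8 higher and 1 lower with array weights, 5 higher and 1 lower with probe set means, 1 higher and 1 lower with the brightest probe set, 3 higher with the brighter probe sets and 7 higher and 1 lower with centred probe sets. The call lower was Eif4a2 each time. Called higher in 1 alternative each were Eif2b1, Eif3c, Eif3d, Eif3g, Eif4g1, Eif4ebp3 and Eif5a2. Leaving out an array gave 1 to 3 members higher and 0 lower, against 663 to 1480 genes higher and 382 to 969 lower in all. All genes came to 1366 higher and 908 lower in the main setting, to 2608 and 2399 with weights, to 2199 and 1616 with centred probe sets, and to 1482 lower with means. For the 50th percentile filter, the trend and the brighter probe sets the counts of all genes are not given here. The member counts of those settings therefore have no share of all genes beside them.

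Member probe sets called higher and lower numbered 11 and 2. The counts were 1 and 1 without a filter, 27 and 4 with the trend, 45 and 8 with weights, 0 to 7 and 0 to 2 without an array, and 1 lower under the 50th percentile filter. With the replicate number as a block they were 0 and 1, and all genes came to 1209 higher and 761 lower. Deviations of same-numbered arrays correlated at 0.025, 0.19 and -3.6e-04 over all genes, over 0.1 for replicate 2 only. Because not every number was over 0.1, the samples were taken to share only a number. Over the members alone the correlations were 0.34, 0.71 and 0.43, and without Eif2s1 and Eif2s2 they were 0.30, -0.031 and 0.18. These correlations use gene medians, and single probe sets of other members were also lowest on both replicate 2 arrays. A probe set of Eif3m read 11.28, 9.55 and 10.51 on insulin arrays and 11.13, 10.00 and 11.43 on control arrays. A probe set of Eif4g2 read 12.80, 11.68 and 12.52 on insulin arrays and 12.84, 11.15 and 12.90 on control arrays. How many probe sets did so was not counted. Whether arrays of 1 number shared a handling step was not tested.

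The eIF4F median was 0.079 with weights, 0.057 with means, 0.016 with the brightest, 0.074 with the brighter and 0.075 with centred probe sets. The eIF3 median was -0.0072 with the brightest and 0.023 with the brighter probe sets and 0.034 to 0.071 without an array. For eIF1 it was 0.095 with the brighter probe sets, for the Argonaute genes -0.11 with the brightest, and for eIF2B 0.075 to 0.14 without an array.

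Medians of complexes that turned were eIF2 (-0.20 to 0.098 over all alternatives) and the other eIF4A and eIF4E family (-0.022 to 0.061). Those of eIF3 (-0.0072 to 0.076) and the Argonaute genes (-0.11 to 0.026) turned as well. Genes and pairs turned as follows, and the cause was not tested. With weights, Eif2s1 was at 0.18 and Eif2s2 at 0.049. With means, Eif1b was at 0.025, Eif2s2 at 0.21 and the pair Eif4e and Eif4e3 at -0.042. With the brightest probe set, Eif1b was at 0.016, Eif2s1 at 0.14, Eif2s2 at 0.046, Eif2s3x at -0.039, Eif5a2 at -0.095, Eif2c3 at -0.013, Eif3d at -0.0072 and the pair Eif5a and Eif5a2 at 0.095. With the brighter probe sets, Eif1b was at 0.030, Eif2s1 at 0.14, Eif2s2 at 0.12, Eif3f at 6.23e-05 and Eif5a at 0.094. With centred probe sets, Eif1b was at 0.044, Eif2s1 at 0.12, Eif2s2 at 0.23, Eif4ebp2 at -0.013, Eif5a at 0.094, the pair Eif4e and Eif4e3 at -0.0068 and the pair Eif5a and Eif5a2 at 0.034. Without an array, values ran from -0.0043 to 0.11 for Eif2s3x, -0.38 to 0.057 for Eif2s1, -0.023 to 0.14 for Eif2c3, -0.11 to 0.021 for Eif4e1b, -0.029 to 0.16 for Eif4ebp1, -0.033 to 0.078 for Eif4ebp2, -0.046 to 0.12 for the pair Eif4ebp1 and Eif4ebp2, and -0.0072 to 0.13 for the pair Eif4e and Eif4e3.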
